A study of Mus musculus with 12 samples.

Results

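The genes for the proteins of the cytosolic ribosome were followed in the cerebellar cortex of mice on 3 diets. Members were protein-coding genes whose mouse symbol has the form Rps or Rpl with a number, together with Rpsa and Rplp0 to Rplp2. Kinases of the Rps6k family, pseudogenes and Gm-named copies were left out. The choice gave 84 of the 54752 genes in the table of counts, of which 32 encode proteins of the small (40S) subunit and 52 proteins of the large (60S) subunit. The rule itself reads symbols and biotypes and no expression value.

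Messenger RNA was captured from total RNA by its poly(A) tail and sequenced from 12 libraries, 1 per mouse. All mice were wild-type (WT) males, F1 hybrids of C57BL6J and FVB, aged 12 weeks. Per diet there were 4 libraries: ad libitum feeding (AL), dietary restriction (DR) and a ketogenic diet (KD). DR mice received their ration once daily before the dark period and were killed at the start of a dark period, without their last meal. The article describes AL and DR only, so the composition of KD and the feeding state of KD mice at death are not given in the sources used here. The dissected piece held several folia of hemisphere, paravermis and vermis and no cerebellar nuclei, and cells of all its types are mixed in it. In such tissue fewer cells of a type and less RNA per cell cannot be told apart.

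A ribosome joins a small subunit, which reads the mRNA, to a large subunit, which forms the peptide bond. Their proteins are needed in nearly equal numbers, and every cell makes them. Most of their mRNAs begin with an uninterrupted run of pyrimidines (C and T), the TOP motif, through which the kinase complex mTORC1 sets how strongly they are translated when nutrients change. TOP control acts on translation, so RNA levels do not measure it. Almost every one of these genes has also left many processed pseudogenes in the genome.

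Promoter sequences of RefSeq (GRCm38.p6, 250 bases before to 50 after the start site) were found for 64 of the 84 genes. The windows below run from 40 bases before to 20 after the RefSeq start. They are given for the 6 genes with an entry whose p was smallest for DR against AL. A TOP motif begins at the start of the mRNA, so letters before the start are not part of it. Capitals mark the longest unbroken run of C and T in each window of 60 bases.
Rps3a1, chr3:86142649-86142708, minus strand: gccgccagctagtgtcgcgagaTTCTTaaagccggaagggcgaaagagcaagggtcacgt
Rpl9, chr5:65391412-65391471, minus strand: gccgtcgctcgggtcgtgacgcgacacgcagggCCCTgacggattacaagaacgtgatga
Rpl31, chr1:39367811-39367870, plus strand: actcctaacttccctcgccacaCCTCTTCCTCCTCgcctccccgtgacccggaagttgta
Rps15, chr10:80292391-80292450, plus strand: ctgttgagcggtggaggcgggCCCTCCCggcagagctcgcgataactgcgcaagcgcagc
Rpl34, chr3:130730318-130730377, minus strand: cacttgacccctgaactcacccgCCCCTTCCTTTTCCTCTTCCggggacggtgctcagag
Rps15a, chr7:118116128-118116187, minus strand: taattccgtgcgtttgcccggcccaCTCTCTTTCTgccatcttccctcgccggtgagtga
The run was 20 bases in Rpl34, 13 in Rpl31, 10 in Rps15a, 7 in Rps15, 5 in Rps3a1 and 4 in Rpl9. Only the run of Rpl34 crossed the RefSeq start. The runs of Rps3a1, Rpl9, Rpl31, Rps15 and Rps15a ended before it, so by that start they lie outside the mRNA. The RefSeq start lay 9 bases (Rpl31) to 61 bases (Rpl34) from the outer end of the gene in the deposited table, so a short run says only that these letters are not in this window.

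A run of at least 8 pyrimidines stood in this window, before or after the start, in 36 of the 64 genes (56.2%). The share was 27.2% of the 27025 gene symbols with a RefSeq promoter. Where a symbol had several start sites, its longest run was taken, and a motif at any of them counted. The median run was 9 bases in these genes and 6 in all symbols. On either strand of the 300 bases, CCGGAAG, a site bound by ETS factors such as GABP, stood in 26 of the 64 genes (40.6%) and in 9.93% of all symbols. GGGCGG, the core of the SP1 site, stood in 62.5% and 38.2%, and AAGATGG, the core of the YY1 site, in 15.6% and 7.28%. Rps3a1, Rpl31 and Rpl34 hold CCGGAAG, and Rpl9 and Rps15 hold none of the 3 motifs.

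The libraries held 31712084 to 40798644 counted reads, and the 3 diets overlapped in depth. CPM are counts scaled to the size of their library. Granule cell markers summed to 4991 to 5518 CPM in AL libraries. The marker of the cerebellar nuclei was at 0.0287 to 0.715 CPM over all 12 libraries, which matches the dissection described in the article. All 18 pairs of libraries within a diet differed by more than counting noise (4.95 to 11.6 as chi-square per gene). No 2 of them were therefore the same library sequenced again. These values cannot show whether 2 libraries came from different mice.

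The 84 genes took 0.650% to 0.851% of the counted reads of a library. Levels between genes were compared as CPM per kb of exonic length, averaged over 12 libraries. On this scale the small subunit genes had a median of 46.1 and the large subunit genes of 44.5. Rplp1, an acidic protein of the stalk that recruits translation factors, was highest with 414.8 CPM per kb. Rps15 (216.8), Rps3a1 (166.2), Rpl17 (149.4), Rps29 (130.7) and Rpl36 (117.5) followed at the head of their subunits. The lowest small subunit genes were Rps10 (2.28), Rps27l (8.73) and Rps20 (10.1), and the lowest large subunit genes were Rpl10l (0), Rpl39l (0.00577) and Rpl36al (0.209). Exonic length counts all annotated exons of a gene, so ranks and comparisons per kb depend on the annotation. Rps20 has 4.08 kb of exons for a coding sequence of 360 bases. Its 41.1 CPM were above those of Rps28 (39.3) and Rps2 (37.6), which rank higher per kb. Of the 84 genes, 30 of the small and 47 of the large subunit had a mean of at least 10 CPM.

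**Figure D1:**
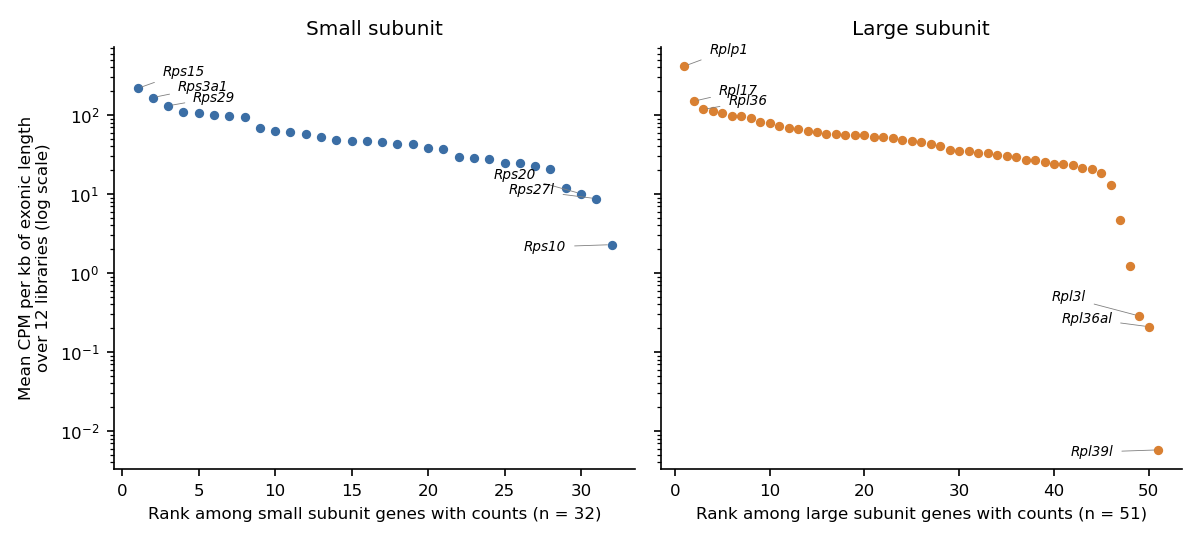
Mean CPM per kb of exonic length (log axis) against the rank of each gene within its subunit, over 12 libraries, with the 3 highest and 3 lowest genes with counts named. Most genes lie within a narrow band, and Rplp1 (414.8 CPM per kb) stands above it while Rps10, Rpl3l, Rpl36al and Rpl39l fall far below. Rpl10l, with no counts, cannot be drawn on a log axis.

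Several ribosomal proteins have a second, closely related gene, and these paralogues differed widely in level. Rpl10l, a testis gene with 84.8% of its coding bases equal to those of X-linked Rpl10, had no count in any library, where 3 counts, the limit that a count of 0 allows, would be 0.0735 to 0.0946 CPM. Rpl39l was at 0 in 11 libraries and at 0.0575 CPM in DR replicate 3. Rpl3l, the striated muscle paralogue of Rpl3, had 0.286 CPM per kb against 66.2 for Rpl3. Rpl7l1 had 13.0 CPM per kb against 46.2 for Rpl7, and Rps27l had 8.73 against 46.2 for Rps27. Rpl22 and Rpl22l1 were the pair with like levels, 23.3 and 26.9 CPM per kb. The CPM of Rpl22l1 were 47.8, 50.5, 47.5 and 59.5 in AL, 59.1, 52.5, 53.0 and 51.6 in DR and 56.2, 51.7, 55.5 and 57.9 in KD, and the 3 diets overlapped. Rps4x had 60.2 CPM per kb, and its copy Rps4l is annotated as a pseudogene and was no member.

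Low levels of 3 genes coincide with annotations that may compete for their reads, though other members with such annotations were not as low. The coding sequence of Rpl36al (0.283 CPM) has 2 near-identical copies, which held 94.6% of the counts of gene and copies together. Rpl24 (1.25 CPM) shares 46.99% of its exonic bases with the readthrough gene Gm28037, listed at 0 in every library, and copies held 53.2% of the joint counts. Rps10 (5.28 CPM) shares 28.7% with Gm15420 and RPS10-NUDT3, and copies held 46.6%. How reads that fit several genes were treated is not stated, so the levels of these 3 genes, and the order at the low end of each subunit, are uncertain. Over all members, 76 of 84 had at least 1 annotated copy with at least 95% identity over at least 80% of the coding sequence (median 5 copies, at most 57 for Rpl21). In 20 members copies held over 10% of the joint counts. Among these were Rps2 (61.6%, 37.6 CPM), Rpl29 (60.2%, 63.5 CPM) and Rpl35a (54.9%, 108 CPM). Rpl35 and Rpl23a share 66.2% and 62.3% of their exonic bases with other genes, and were at 36.3 and 83.3 CPM. The cause of the low levels of Rpl36al, Rpl24 and Rps10 was not tested.

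The same genes moved together from library to library. Deviations are given on the log2 CPM scale from each gene's own mean over 12 libraries, for the 77 tested genes that reached 10 CPM on average. The mean over the 30 small subunit genes was -0.03, -0.03, -0.18 and 0.02 in AL replicates 1 to 4, 0.15, 0.00066, -0.01 and 0.07 in DR, and 0.03, -0.02, -0.05 and 0.05 in KD. The mean over the 47 large subunit genes was -0.01, -0.01, -0.19 and -0.0037 in AL, 0.16, 0.04, -0.04 and 0.05 in DR, and 0.03, -0.04, -0.05 and 0.07 in KD. AL replicate 3 was lowest and DR replicate 1 highest of the 12, and the remaining libraries of the 3 diets overlapped.

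In AL replicate 3, 0 of the 77 genes were above their own mean, and 66 had their lowest value there. In DR replicate 1, 76 of 77 were above their mean and 53 had their highest value there. The 2 subunits rose and fell in step (Pearson r = 0.97 between their means over 12 libraries). A single gene correlated with the mean of the other members with a median r of 0.83 over 12 libraries, and of 0.82 after each diet's mean was removed, so the shared movement was nearly as strong within diets as over all libraries. All points share the same 12 libraries and their scaling. The first principal component held 58.7% of the variance of these genes.

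Rpl21, a large subunit protein, followed the rest most closely (r = 0.99), then Rps24 (0.96) and Rpl32 (0.95). The least alike was Rps28 (r = 0.15), at 34.7, 36.5, 39.0 and 42.8 CPM in AL, 40.3, 33.2, 40.1 and 42.8 in DR and 41.9, 40.5, 39.4 and 40.5 in KD. In AL replicate 3, the lowest library of nearly all other members, Rps28 was above AL replicates 1 and 2. Rpl13a (r = 0.43), a large subunit protein also known as the L13a of the GAIT complex, was at 17.8 CPM in DR replicate 2 and at 6.71 to 13.0 CPM in the 11 other libraries. Of its exonic bases, 35.4% overlap other genes.

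**Figure D2:**
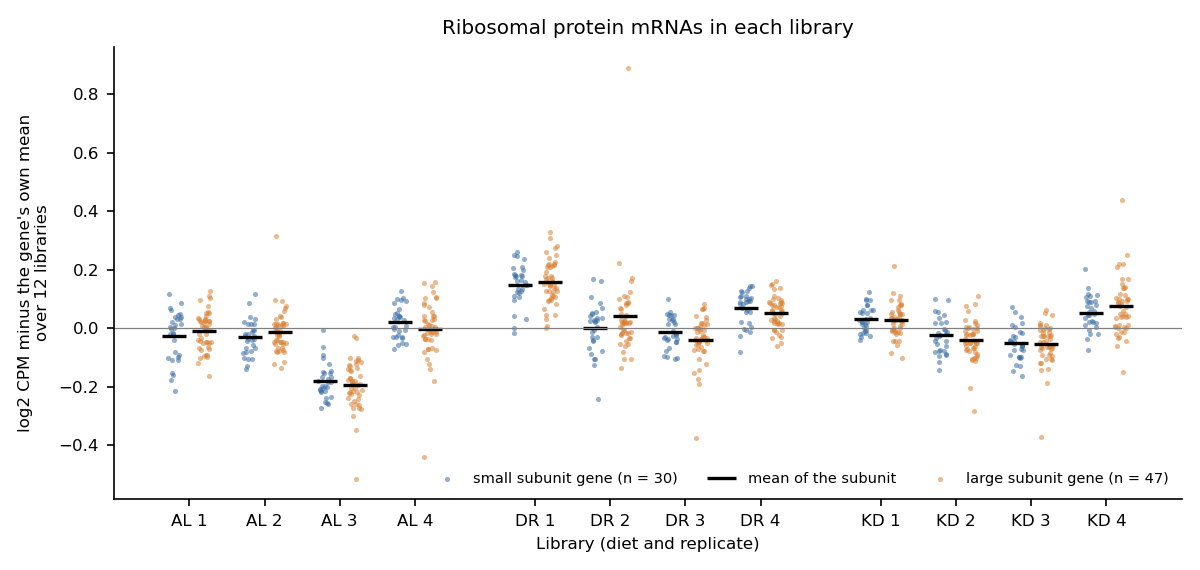
Log2 CPM of 77 ribosomal protein genes minus each gene's own mean, by library, for 30 small (blue) and 47 large (orange) subunit genes. Black bars are subunit means. AL replicate 3 lies below the others (-0.18 and -0.19) and DR replicate 1 above (0.15 and 0.16), in both subunits, and the outlying point of DR replicate 2 is Rpl13a.

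The comparison of DR with AL asked how these mRNAs differed between the diets. DR joined a smaller ration, a once-daily timed meal and a missed last meal, and these cannot be told apart here. Of the 84 genes, 82 had enough counts to be tested (Rpl10l and Rpl39l did not), and 0 were called at an adjusted p under 0.05 by the quasi-likelihood test of edgeR, where 3.06% of the 19052 genes tested were called (1.32% higher, 1.74% lower). The values leaned upward all the same. The log2 fold change was above 0 in 77 of 82 members, against 51% of all genes, and the median was 0.11 in both subunits (1.08-fold), against 0.0036 for all genes. At an unadjusted p under 0.05, 29 members were higher (15 small, 14 large) and 0 lower, where 9.02% of all genes were higher and 8.98% lower. DESeq2, run on every gene with a count, called 2 of 83 members, Rpl3 and Rps3a1, both higher. It called 986 of 35284 genes and gave no adjusted p to 19154 of them.

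These counts rested in part on 2 libraries. With AL replicate 3 left out the medians were 0.07 (small) and 0.06 (large), and 5 members were higher and 1 lower at an unadjusted p under 0.05 (7.32%, against 18.02% of all genes in either direction in that fit). With DR replicate 1 left out they were 0.09 and 0.08, with 9 members higher and 0 lower (10.98%, against 16.4%). With both left out the medians fell to 0.04 and 0.03, 58 of 82 members were above 0, and 4 were higher and 1 lower at an unadjusted p under 0.05 (6.1%, against 18.4%). These genes moved together from library to library, so their number does not stand for as many independent observations.

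Rps3a1, a small subunit protein at the side of the mRNA exit, had the smallest p. It was at 162, 156, 143 and 159 CPM in AL and at 181, 168, 174 and 174 CPM in DR, so every DR library was above every AL library. The log2 fold change was 0.17 (SE 0.05, adjusted p = 0.0651 by edgeR). The groups stood apart by more than their spread (AL 155 ± 8.31, DR 174 ± 5.26, SD, n = 4), and the call was missed after adjustment over all genes.

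Rpl3, a large subunit protein next to the peptidyl transferase centre, was at 196, 208, 205 and 200.03 CPM in AL and at 245, 217, 220 and 222 CPM in DR, again without overlap. In AL replicate 3 Rpl3 was not the lowest library. The log2 fold change was 0.16 (SE 0.05, adjusted p = 0.0806 by edgeR). Copies of Rpl3 held 30.3% of the joint counts, and with them included the levels were 274 to 299 CPM in AL and 313 to 355 CPM in DR, still apart.

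Without overlap between the diets and higher in DR were 9 members, among them Rps3a1, Rps15a, Rps20, Rpl3, Rpl4, Rpl7, Rpl13 and Rpl23. The 9 were 10.98% of those tested against 5.3% of all genes. Those outside the smallest p were named after their values were seen. None was lower without overlap, against 5.64% of all genes. At the ends of the range, Rpl13a had a log2 fold change of 0.28 (SE 0.23) and Rpl3l of -0.31 (SE 0.28), both within 2 SE of 0, and the first turned to -0.04 without DR replicate 2. Below 0 were Rpl22, Rpl36al, Rpl24, Rpl3l and Rps10, of which all but Rpl22 had a mean under 10 CPM.

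The comparison of KD with AL asked the same for a ketogenic diet. No member was called by edgeR or by DESeq2, and 0 of the 19036 genes tested were called (0%), with 928 genes at an unadjusted p under 0.05 and 9 called by DESeq2. The log2 fold change was above 0 in 67 of 82 members, against 50.1% of all genes, with medians of 0.05 in both subunits. At an unadjusted p under 0.05, 7 members were higher and 1 lower, where 2.39% of all genes were higher and 2.48% lower. With AL replicate 3 left out the medians were 0.01 in both subunits, 47 of 82 members were above 0, and 3 were higher and 1 lower at an unadjusted p under 0.05 (4.88%, against 5.22% of all genes in either direction). The count of 7 became 19 without AL replicate 4 (medians 0.08 and 0.07), 11 without KD replicate 3 (0.07 and 0.08) and 3 without KD replicate 4 (0.03 in both subunits). In the first of these fits 1 member was lower. In either direction these were 24.4%, 13.4% and 3.66% of members, against 6.11%, 5.22% and 3.32% of all genes. Without overlap between KD and AL, 2 members were higher (Rpl13 and Rpl18), 2.44% against 1.41% of all genes, and 0 were lower, against 1.55%. Blood cell markers, 5 genes, were all lower in KD at an unadjusted p under 0.05, with 0 called by edgeR, and summed to 275 to 423 CPM in AL and 238 to 270 CPM in KD. Their part in these values was not tested.

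Rps29, a zinc-binding protein of the small subunit, was at 83.9, 85.8, 84.4 and 92.6 CPM in AL and at 91.3, 92.7, 94.0 and 97.9 CPM in KD. The groups overlapped at AL replicate 4, and the log2 fold change was 0.12 (SE 0.04, adjusted p = 0.981 by edgeR). Rpl13 was at 46.3, 46.2, 41.9 and 45.2 CPM in AL and at 48.7, 47.01, 49.9 and 49.8 CPM in KD, without overlap, with a log2 fold change of 0.12 (SE 0.04, adjusted p = 0.981 by edgeR). Rps20 was at 35.3, 40.5, 36.6 and 41.0 CPM in AL and at 42.8, 44.0, 39.5 and 43.6 CPM in KD, with a log2 fold change of 0.15 (SE 0.06, adjusted p = 0.981 by edgeR). The member below 0 at an unadjusted p under 0.05 was Rpl3l, at 0.592, 0.542, 0.717 and 0.507 CPM in AL and 0.520, 0.371, 0.192 and 0.309 CPM in KD. Its log2 fold change was -0.75 (SE 0.31, adjusted p = 0.981 by edgeR), the lowest of any member, and rests on 7 to 25 counts per library.

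DR and KD were compared directly, since both differ from AL through the same 4 AL libraries. No member was called by edgeR, where 4.94% of the 19087 genes tested were (2.51% higher, 2.43% lower). DESeq2 called 1 of 83 members, Rpl3, and 1284 of 35453 genes, with no adjusted p for 19256 of these genes. The log2 fold change was above 0, that is higher in DR, in 65 of 82 members, against 50.8% of all genes, with medians of 0.06 (small) and 0.05 (large). At an unadjusted p under 0.05, 11 were higher and 1 lower, where 9.39% of all genes were higher and 9.29% lower. With DR replicate 1 left out, the medians were 0.01 and 0.02, 56 of 82 members were above 0, and 5 were higher and 2 lower at an unadjusted p under 0.05 (8.54%, against 17.8% of all genes in either direction). The count of 11 became 17 without DR replicate 3 (medians 0.08 and 0.07), 7 without KD replicate 2 (0.05 and 0.03) and 5 without KD replicate 3 (0.04 in both subunits). In the last of these fits 1 member was lower. In either direction these were 20.7%, 8.54% and 7.32% of members, against 16.7%, 17.5% and 15.3% of all genes. Without KD replicate 4 the large subunit median was 0.08.

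Rpl3, at 212, 207, 190 and 201 CPM in KD, was below every DR library, with a log2 fold change of 0.16 (SE 0.05, adjusted p = 0.0822 by edgeR). Rpl9, a large subunit protein, was at 157, 142, 133 and 137 CPM in DR and 128, 124, 129 and 132 CPM in KD, without overlap, and its log2 fold change was 0.15 (SE 0.05, adjusted p = 0.106 by edgeR). Rps3a1, at 158, 154, 148 and 172 CPM in KD, overlapped with DR at KD replicate 4, and its log2 fold change was 0.14 (SE 0.05, adjusted p = 0.11 by edgeR). Rplp2, a stalk protein, was the member lower in DR at an unadjusted p under 0.05. It was at 73.5, 72.8, 64.5 and 68.8 CPM in DR and 76.8, 77.4, 70.7 and 79.8 CPM in KD, with a log2 fold change of -0.12 (SE 0.05, adjusted p = 0.204 by edgeR). Higher in DR without overlap were 4 members (Rpl3, Rpl6, Rpl7a and Rpl9), 4.88% of those tested against 5.79% of all genes, and 0 were lower without overlap, against 6.03%.

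**Figure D3:**
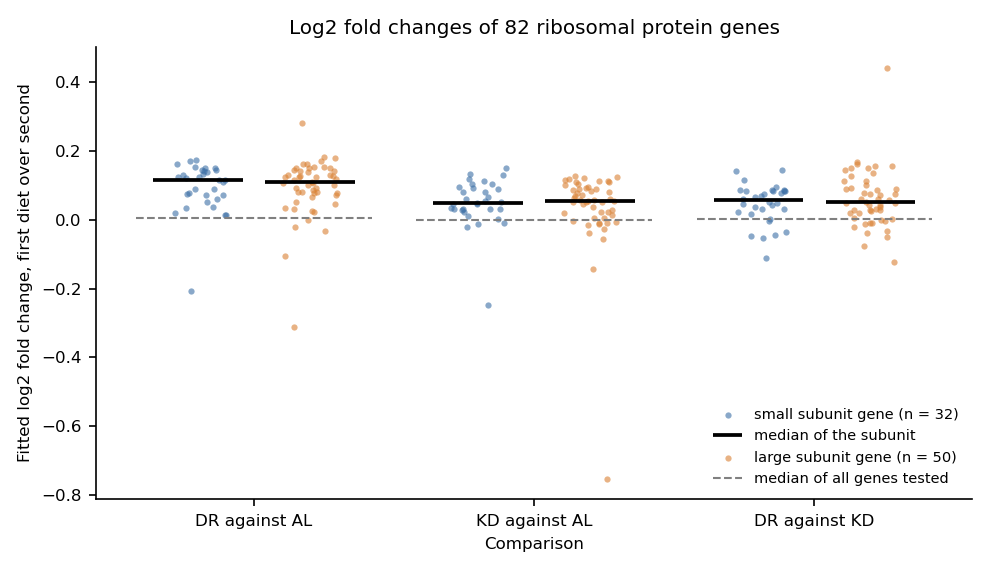
Fitted log2 fold change of 82 ribosomal protein genes in the 3 comparisons, by subunit, with the subunit median (black) and the median of all genes tested (dashed). The medians are 0.11 for DR against AL and 0.05 to 0.06 in the other comparisons, and Rpl3l is the outlying point of KD against AL (-0.75) and of DR against KD (0.44).

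**Figure D4:**
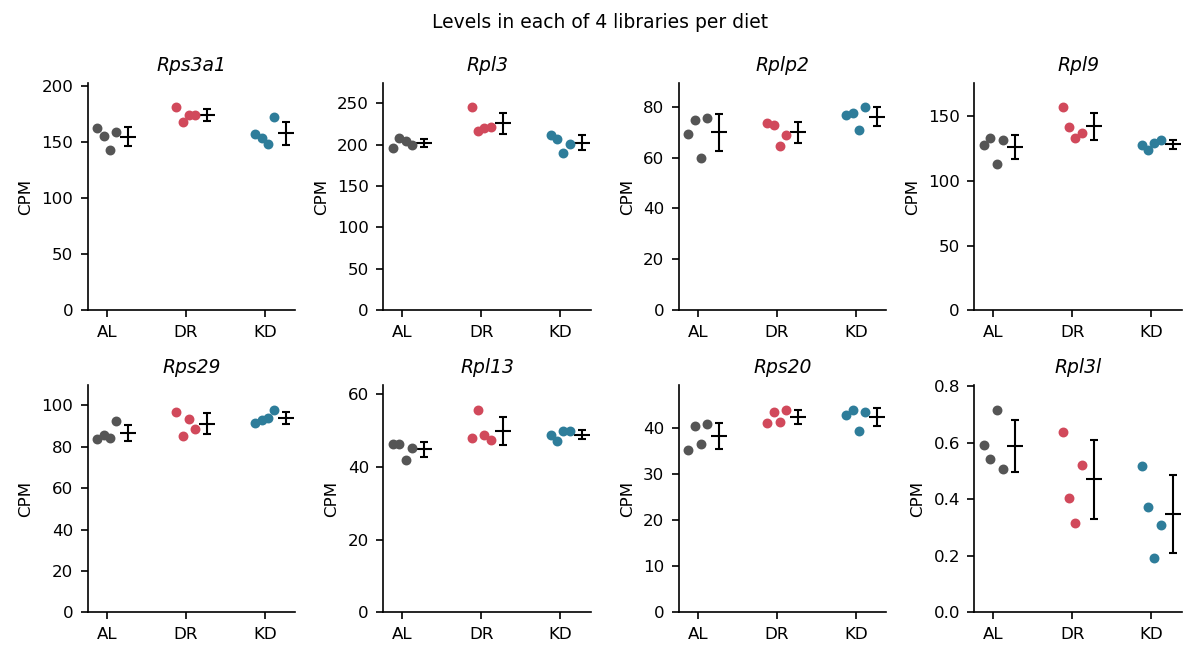
CPM of 8 ribosomal protein genes in each library, with the mean ± SD of 4 libraries per diet beside the points. Axes start at 0. Rps3a1 and Rpl3 are higher in every DR library than in any AL library, and Rpl3l stays below 0.8 CPM throughout.

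Several members have known roles at the stalk, in signalling or outside the ribosome. Rplp0, which anchors the stalk, was at 137, 133, 113 and 130.0 CPM in AL and 153, 134, 127 and 138 CPM in DR, and Rplp1 was at 201, 195, 187 and 206 CPM in AL and 226, 205, 202 and 214 CPM in DR. Both overlapped between diets. Rps6, the substrate of S6 kinase downstream of mTORC1, was at 176, 176, 150 and 173 CPM in AL, 206, 164, 163 and 186 CPM in DR and 180, 175, 161 and 164 CPM in KD. For Rps6 DR replicates 2 and 3 were below AL replicates 1, 2 and 4, so its higher DR mean came from DR replicates 1 and 4.

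Rpl5 and Rpl11 form with 5S RNA the particle that binds Mdm2 when ribosome assembly fails. Rpl5 was at 110, 110, 98.4 and 109 CPM in AL and 124, 105, 104 and 106 CPM in DR, so that 3 of 4 DR libraries were below 3 of 4 AL libraries. Rpl11 was at 98.6, 98.5, 85.0 and 96.5 CPM in AL and 107, 94.8, 103 and 105 CPM in DR, with overlap. Rps27a, made as a fusion with ubiquitin, was at 90.7, 88.3, 75.8 and 88.4 CPM in AL and 102, 93.7, 87.7 and 94.8 CPM in DR. Rpsa, also known as the laminin receptor, was at 155, 155, 136 and 150 CPM in AL and 171, 155, 149 and 150 CPM in DR. Rps3, which also has a role in DNA repair, was at 198, 192, 159 and 199 CPM in AL and 204, 184, 185 and 201 CPM in DR. Rpl10, the X-linked protein that completes the large subunit, was at 143, 137, 125 and 157 CPM in AL and 164, 128, 141 and 138 CPM in DR. In each of these genes AL replicate 3 was the lowest AL library and DR replicate 1 the highest DR library.

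The members are short. Their median exonic length was 1.74 kb against 3.62 kb for all genes tested, and 91.7% of them were shorter than that median. They lie on 19 chromosomes, with at most 14 on 1 chromosome (chromosome 7). The annotated exons of 17 overlap a gene with the symbol of a small nucleolar RNA. Small nucleolar RNA genes that lie in introns only, or that have other symbols, were not counted. Each library was therefore described by the slope of its log2 CPM deviations on log2 exonic length, over all genes that reached 1 CPM on average, where a positive slope means that longer transcripts stood higher. The slope was 0.0027, 0.0077, 0.029 and -4.11e-05 in AL, -0.027, -0.011, 0.0022 and -0.0052 in DR, and -0.0024, 0.0068, 0.0093 and -0.013 in KD.

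AL replicate 3, lowest in ribosomal protein mRNA, had the most positive slope, and DR replicate 1, highest in ribosomal protein mRNA, the most negative. Within AL and within KD the 4 libraries ran in exactly opposite orders on the 2 measures, and within DR replicates 2 and 4 exchanged places. The mean slope was 0.0099 in AL and -0.01 in DR (two-sided exact permutation test over 70 divisions, p = 0.0571, adjusted p = 0.171 over 3 pairs of diets). The difference was -0.02 with or without the ribosomal protein genes. Over genes that reached 10 CPM on average it was -0.018 (same exact test, p = 0.314, adjusted p = 0.557). With 1 library left out, the p of that test ran from 0.0286 (without DR replicate 3, adjusted p = 0.0857) to 0.143 (without DR replicate 1, adjusted p = 0.429). With each library's length trend removed, the medians for DR against AL were 0.09 (small) and 0.08 (large), and 71 of 82 members were above 0. In that fit 23 members were higher and 0 lower at an unadjusted p under 0.05 (28.0%, against 18.1% of all genes in either direction). The part of the length trend in the result of AL replicate 3 and DR replicate 1 was not tested beyond this.

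**Figure D5:**
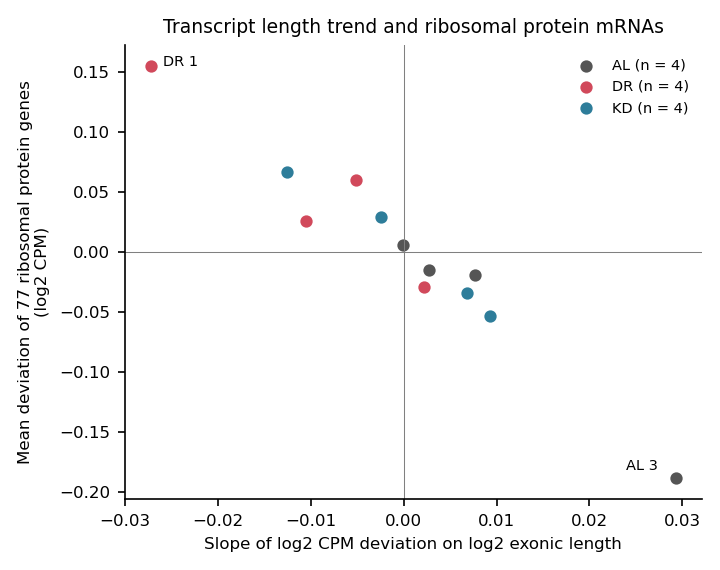
Mean deviation of 77 ribosomal protein genes (log2 CPM) against the slope of log2 CPM deviation on log2 exonic length, 1 point per library. AL replicate 3 (slope 0.029) and DR replicate 1 (slope -0.027) are the extremes on both axes.

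The near-identical copies were summed as well. The 569 annotated copies together took 0.0955% to 0.118% of the reads, lowest in AL replicate 3 and highest in DR replicate 1, as for the genes themselves. For the 72 genes with a copy that reached 10 CPM on average, the median ratio of mean CPM for DR over AL was 1.09 without and with the counts of copies.

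Single markers of several cell types were called lower in DR, the diet with the higher ribosomal protein values. Of all genes, 1.74% were called lower in DR than in AL. Against KD, 2.43% of all genes were called lower in DR and 2.51% higher. Among 6 Purkinje cell markers 0 were above 0 and 1 was called lower in DR than in AL (Car8), and their summed level was 6546 to 7038 CPM in AL and 5528 to 6378 CPM in DR. Among 5 astrocyte and Bergmann glia markers 0 were above 0 and 1 was called lower (Aqp4). Their sums were 1729 to 1857 CPM in AL and 1545 to 1607 CPM in DR. Among 5 oligodendrocyte markers 1 was above 0 and 1 was called lower, with a median log2 fold change of -0.21 and sums of 2055 to 2655 CPM in AL and 1932 to 2408 CPM in DR, which overlap. Among 4 oligodendrocyte precursor markers 0 were above 0 and 1 was called lower (Gpr17). Their sums were 63.9 to 73.1 CPM in AL and 54.1 to 63.0 CPM in DR. Among 6 granule cell markers 3 were above 0 and 0 were called between DR and AL (1 higher and 1 lower at an unadjusted p under 0.05). Their sums were 4991 to 5518 CPM in AL and 5160 to 5356 CPM in DR. For DR against KD, Car8, Aqp4, Gpr17, 2 oligodendrocyte markers (Mag among them), the granule cell marker Fat2 and the choroid plexus marker Ttr were called lower, and the granule cell marker Cbln3 higher. Of the markers of interneurons, microglia, endothelium, choroid plexus, blood and meninges, 0 were called for DR against AL by edgeR. Most of them leaned lower in DR. Above 0 were 0 of 5 interneuron, 1 of 5 microglia and 1 of 4 endothelial markers. The same held for 1 of 4 choroid plexus markers tested, 0 of 5 blood and 1 of 4 meningeal markers. No Purkinje cell, astrocyte, oligodendrocyte, precursor or granule cell marker was at 0 in any library, and 1 of 5 choroid plexus markers was at 0 in AL replicates 2, 3 and 4, DR replicate 3 and KD replicate 2. Their part in the ribosomal protein values was not tested.

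Genes that serve the ribosome were read from lists. The ribosomal proteins Fau and Rack1, whose symbols lie outside the rule, were called in 0 comparisons, and at an unadjusted p under 0.05 in 0. Fau was at 130, 124, 120 and 125 CPM in AL and 147, 129, 112 and 134 CPM in DR, again with its highest DR level in replicate 1. A further 20 genes are known for a TOP motif. Most encode elongation and initiation factors, with a few others such as Npm1, Tpt1 and the noncoding Gas5. Of the 20, 16 were above 0 for DR against AL with a median of 0.05, and 0 were called by edgeR. Among them 2 were higher and 0 lower at an unadjusted p under 0.05, against 9.02% and 8.98% of all genes. In DR against KD 1 was called, Eef1d, a subunit of the elongation factor eEF1B, at 108, 102, 104 and 104 CPM in DR and 89.9, 91.0, 95.2 and 93.5 CPM in KD (log2 fold change 0.18, SE 0.04, adjusted p = 0.0172 by edgeR).

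Of 107 ribosome biogenesis genes 103 were tested, and 62 were above 0 for DR against AL with a median of 0.0097. Of the 103, 3 were higher and 5 lower at an unadjusted p under 0.05, against 9.02% and 8.98% of all genes. By edgeR 1 was called lower in DR than in AL and 1 in DR than in KD, against 1.74% and 2.43% of all genes. Rrp12, a factor in the export and maturation of both subunits, was called lower in DR than in AL and KD. It was at 32.3, 34.5, 31.9 and 29.98 CPM in AL, 27.1, 27.2, 26.1 and 28.8 CPM in DR and 32.4, 33.4, 31.9 and 32.1 CPM in KD, without overlap (DR against AL, log2 fold change -0.24, SE 0.06, adjusted p = 0.0393 by edgeR; DR against KD -0.25, adjusted p = 0.0112).

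Of 31 genes of mTORC1 and translational control, 0 were called for DR against AL by edgeR. Among them 3 were higher and 2 lower at an unadjusted p under 0.05, against 9.02% and 8.98% of all genes. For DR against KD 2 were called higher, against 2.51% of all genes. Ddit4, an inhibitor of mTORC1 that answers to stress, was at 68.1, 84.7, 86.7 and 84.8 CPM in DR and 61.6, 63.8, 57.3 and 59.1 CPM in KD (log2 fold change 0.42, SE 0.07, adjusted p = 0.0016 by edgeR). Its AL levels of 58.9, 94.3, 69.1 and 55.7 CPM spanned both. Sesn1, a leucine sensor that restrains mTORC1, was at 91.9, 88.0, 87.6 and 83.1 CPM in DR and 76.6, 77.4, 76.6 and 80.3 CPM in KD (log2 fold change 0.17, SE 0.04, adjusted p = 0.0292 by edgeR).

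Of the 78 genes of the mitochondrial ribosome, which share no subunit with the cytosolic one, 77 were tested. For DR against AL 57 were above 0 with a median of 0.05 and 0 were called by edgeR. Of the 77, 4 were higher and 0 lower at an unadjusted p under 0.05, against 9.02% and 8.98% of all genes. For KD against AL 57 were above 0 with a median of 0.05. For DR against KD 42 were above 0 with a median of 0.0081, and 1 was called higher, Mrps9 (log2 fold change 0.19, SE 0.05, adjusted p = 0.044 by edgeR). Their mean deviation was also lowest in AL replicate 3 (-0.14) and highest in DR replicate 1 (0.10) of the 12 libraries.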

How the data were processed

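Poly(A) RNA of 12 libraries (TruSeq RNA V2, which does not mark strand) was sequenced. Per the labels and the article, the authors trimmed reads with Trimmomatic 0.39, mapped them to GRCm38.p6 with STAR 2.7.0f and assigned them to genes with featureCounts of Subread 1.6.4. The deposited values are these raw counts, without normalization. The strand setting and the treatment of multi-mapping reads are not given in the sources used here, and reads of overlapping genes and near-identical copies may be lost or split.

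Genes with few counts were dropped with filterByExpr (at least 10 counts, at least 15 in total). Counts were then normalized by TMM and compared in edgeR 4.0.16 (R 4.3.3) by its quasi-likelihood test, each pair of diets on its own 8 libraries, without covariates, with Benjamini-Hochberg adjustment over all genes tested and a threshold of 0.05. CPM used TMM factors over 12 libraries and log2 CPM a prior count of 2. Fold changes are printed for the 3 members with the smallest p in each comparison and for those at either end, and a few genes that this rule or the lists would name are not reported here. Other members named were paralogue pairs, members with known roles, and the 3 highest and lowest per kb. Members named for their likeness to the rest, for overlap with other genes or for groups that do not overlap were chosen after their values were seen. From each list the genes called were named, up to 3 per direction. DESeq2 1.42.0, other filters and scalings, a length trend (lowess) and leaving out libraries served as alternatives, and the fits were tested on simulated counts. Counting error is small at this depth, and the spread between mice sets the precision.

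Symbols, biotypes, coding sequences and overlaps came from GENCODE M21, a later release of the same build as the authors' M20. Coordinates of genes are those of the deposited table, and those of the windows come from RefSeq on GRCm38.p6. Copies were found with BLAST+ 2.17.0. The deposited table gives 12 columns matched to the labels by title. Replicate numbers only name samples. Members and lists were chosen with earlier results of these data known. The edgeR p-values set a difference between diets against the spread between mice, pooled over both diets and moderated across genes. The exact test of slopes sets the observed difference against those of all 70 divisions of the 8 libraries.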

Additional observations from a re-analysis of the deposited data

Results flagged for a closer look

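In 16 of 109 groups of 4 libraries, 1 library stood away from the other 3 by more than Dixon's critical value for the gap as a share of the range. Chance gives about 1 in 20 such groups, and members that move together are not independent groups. Of the AL groups, 7 had AL replicate 3 as the low library. The mean of the large subunit genes was 6.19 log2 CPM there, against 6.37 to 6.38 in the 3 others. The CPM there were 85.0 for Rpl11, 95.4 for Rpl17, 98.4 for Rpl5, 75.8 for Rps27a, 84.5 for Rps4x and 150.5 for Rps6. DR replicate 1 was the high library for Rpl5 (124.0 CPM) and Rpl7 (150.3 CPM).

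The remaining 7 fell in other libraries. Rps27 was high in AL replicate 4 (51.7 CPM), Rpl13 in DR replicate 2 (55.7 CPM), Rplp0 in KD replicate 1 (137 CPM) and Rps10 in KD replicate 2 (5.74 CPM). Rps15 was low in KD replicate 3 (132 CPM) and Rpl36al in KD replicate 4 (0.18 CPM). Rpl39l was at 0.0575 CPM in DR replicate 3 and at 0 in the other DR libraries.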

How the results depend on the processing

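The medians of both subunits stayed above 0 in every comparison and setting run. Among the results recomputed, 24 counts of calls moved by over 1.5 times, and 8 log2 fold changes passed the threshold that had not. For DR against AL, 5 members were called without a filter on low counts (Rpl14, Rpl17, Rpl9, Rps25 and Rps3a1), 2 by DESeq2 (Rpl3 and Rps3a1), 1 with genes of at least 10 CPM and 1 with library size scaling (both Rps3a1). For DR against KD they were 2 (Rpl10a and Rpl3), 1 by DESeq2 (Rpl3) and 1 without KD replicate 4 (Rps3a1). No member was called for KD against AL in any setting. Genes called over the whole table numbered 583 for DR against AL, 1258 without the filter, 986 by DESeq2 and 235 to 712 with 1 library left out, moving by over 1.5 times without AL replicates 1, 2 or 4 or DR replicates 1 or 3. For KD against AL they numbered 118 without the filter, 9 by DESeq2 and 0 to 6 with 1 library left out. For DR against KD they numbered 942, then 1503 without the filter and 467 to 946 with 1 library left out, moving by over 1.5 times without DR replicate 3 or KD replicates 1, 3 or 4. The log2 fold change of Rpl13a for DR against AL ran from -0.036 to 0.443 with 1 library left out, and was below 0 without DR replicate 2 alone. The cause was not tested. With library size scaling, the split of higher against lower calls went from 252 and 331 to 322 and 243 for DR against AL and from 479 and 463 to 617 and 376 for DR against KD. That scaling moved the median of all genes by 0.0211 and 0.0201. Leaving out both AL replicate 3 and DR replicate 1 was chosen after seeing the data. The exact test of slopes with 4 against 4 libraries cannot go below 0.0286. No paired analysis was possible because the labels carry no replicate numbers shared between diets.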
